A study of Oryza sativa Indica Group with 11 samples.

Results

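Cinnamyl alcohol dehydrogenases (CADs) carry out the last reduction on the way to lignin. The CAD genes of rice were taken by symbol or synonym from the gene annotation of the array, with a leading Os dropped, which gave 7 of the 17905 genes that have a probe set of their own: CAD1, CAD2, CAD3, CAD6, CAD7, CAD8A and CAD8C. The RefSeq table of the assembly ASM3414082v1 lists 10 CAD genes, and CAD8B, CAD8D and CAD9, which have no probe set in the annotation, were not analysed here. The measured genes are read by 8 probe sets, 1 for each gene except CAD8C with 2.

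The arrays measured RNA from dissected crown and growing point tissue of rice, with about 12 plants dissected per sample. They form 4 groups: 3 arrays of salt-stressed IR29, 2 of IR29 control, 3 of salt-stressed FL478 and 3 of FL478 control. IR29 is an indica cultivar known to be sensitive to salt. FL478 tolerates salt and is an inbred line selected from a cross between IR29 and the landrace Pokkali, so it carries part of the IR29 genome. The labels give no salt dose, duration or plant age, and they call the arrays of a group replicates without naming separate cultures, so p-values measure the spread between these samples.

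Lignin is a polymer of monolignols, which plants make from phenylalanine. Phenylalanine ammonia-lyase (PAL) opens the pathway, 4-coumarate:CoA ligase (4CL) activates the acids, hydroxycinnamoyltransferases (HCT) serve the ring hydroxylation step, and cinnamoyl-CoA reductase (CCR) makes the aldehydes that CAD turns into alcohols. Laccases (LAC) and peroxidases then oxidise the alcohols in the wall, mostly in xylem and in the fibres that stiffen stems. In rice, CAD2 is the gene of the gold hull and internode mutant (GH2) and the main CAD of lignin in the culm, and CAD7 is the gene of the flexible culm mutant (FC1), whose walls are thin and weak. For the other members sequence places them in the family, and no role of their own is given here.

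Growing point genes of the KNOX class (OSH1, OSH6, OSH43 and OSH71) had mean intensities of at least 100 in every group, as did the xylem genes CESA4, CESA7, CESA9, IRX9 and BC1. Of the leaf list, CAB2R and RBCS, 2 of 3 genes, reached that level too, and the summed intensity of the list was between 26090 and 45256 over all arrays. On the first principal component, with 23.5% of the variance, IR29 arrays lay between 31.48 and 74.95 and FL478 arrays between -62.57 and -22.26. IR29 control replicate 1 and FL478 salt replicate 2 were the arrays of each line nearest to the other line. On the second component IR29 control replicate 1 lay at -95.15, away from IR29 control replicate 2 at 18.87, and every salt difference of IR29 includes it. Values below are deposited intensities, or log2 of the intensity plus 16 after quantile normalization, and every difference, standard error (SE) and p comes from limma fitted on all 57258 probe sets. Groups of 2 or 3 arrays limit the precision of each value.

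CAD2 had the largest salt difference of the 7 members in IR29, where its level in salt-stressed plants was about 2.10 times that in control plants, and it did not pass the test over all probe sets. CAD2 (LOC4328552) had intensities of 4436, 4290 and 5002 in salt-stressed IR29, against 2762 and 1709 in IR29 control. Every salt array of IR29 lay above both controls, and the controls were further apart from each other than the salt arrays were. The means were 4576 ± 376 in salt-stressed IR29 and 2235 ± 745 in IR29 control (SD, n = 3 and 2). The log2 difference was 1.07 ± 0.20 (SE), with a 95% interval from 0.63 to 1.50, at an unadjusted p of 0.000173 and an adjusted p of 0.144 in limma. In bulk tissue, more cells of a type that makes CAD2 RNA and more of that RNA per cell cannot be told apart.

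In FL478 the CAD2 intensities were 3134, 3008 and 4148 in salt-stressed plants, against 2655, 2524 and 3025 in control plants. The groups did not overlap on the normalized scale, where the salt arrays ran from 11.59 to 12.06 and the controls from 11.30 to 11.57, but as deposited salt replicate 2 (3008) was just below control replicate 3 (3025). The means were 3430 ± 625 under salt and 2735 ± 260 in control plants (SD, n = 3 each). Salt replicate 3 stood above the other salt arrays, which lay close to the highest control. The log2 difference was 0.34 ± 0.18, with an interval from -0.05 to 0.73 and an adjusted p of 0.932 in limma. Without FL478 salt replicate 3 the difference was 0.19.

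The CAD2 response of IR29 exceeded that of FL478 by a log2 difference of 0.73 ± 0.27, with an interval from 0.14 to 1.31. The unadjusted p was 0.0189 and the adjusted p 0.916 in limma, so the lines were not shown to respond differently. This value rests on the pair of IR29 controls: it was 0.38 without IR29 control replicate 2, the lowest CAD2 array of the series, and 1.07 without IR29 control replicate 1. The IR29 response itself was 0.72 and 1.41 in these fits, in which the lone control is assumed to vary like the other groups. Over all 20 alternatives its adjusted p ran from 0.102 to 0.501 in limma.

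The order of the CAD2 group means was salt-stressed IR29 (12.16), salt-stressed FL478 (11.75), FL478 control (11.41) and IR29 control (11.09). Under salt the lowest IR29 array (12.07) was just above the highest FL478 array (12.06), with a log2 difference of 0.40 ± 0.18 (interval 0.01 to 0.79, adjusted p = 0.413 in limma). Among control plants the lines overlapped, at 11.44 and 10.74 in IR29 against 11.30 to 11.57 in FL478. The log2 difference there was -0.32 ± 0.20, and it was 0.03 without IR29 control replicate 2.

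**Figure D1:**
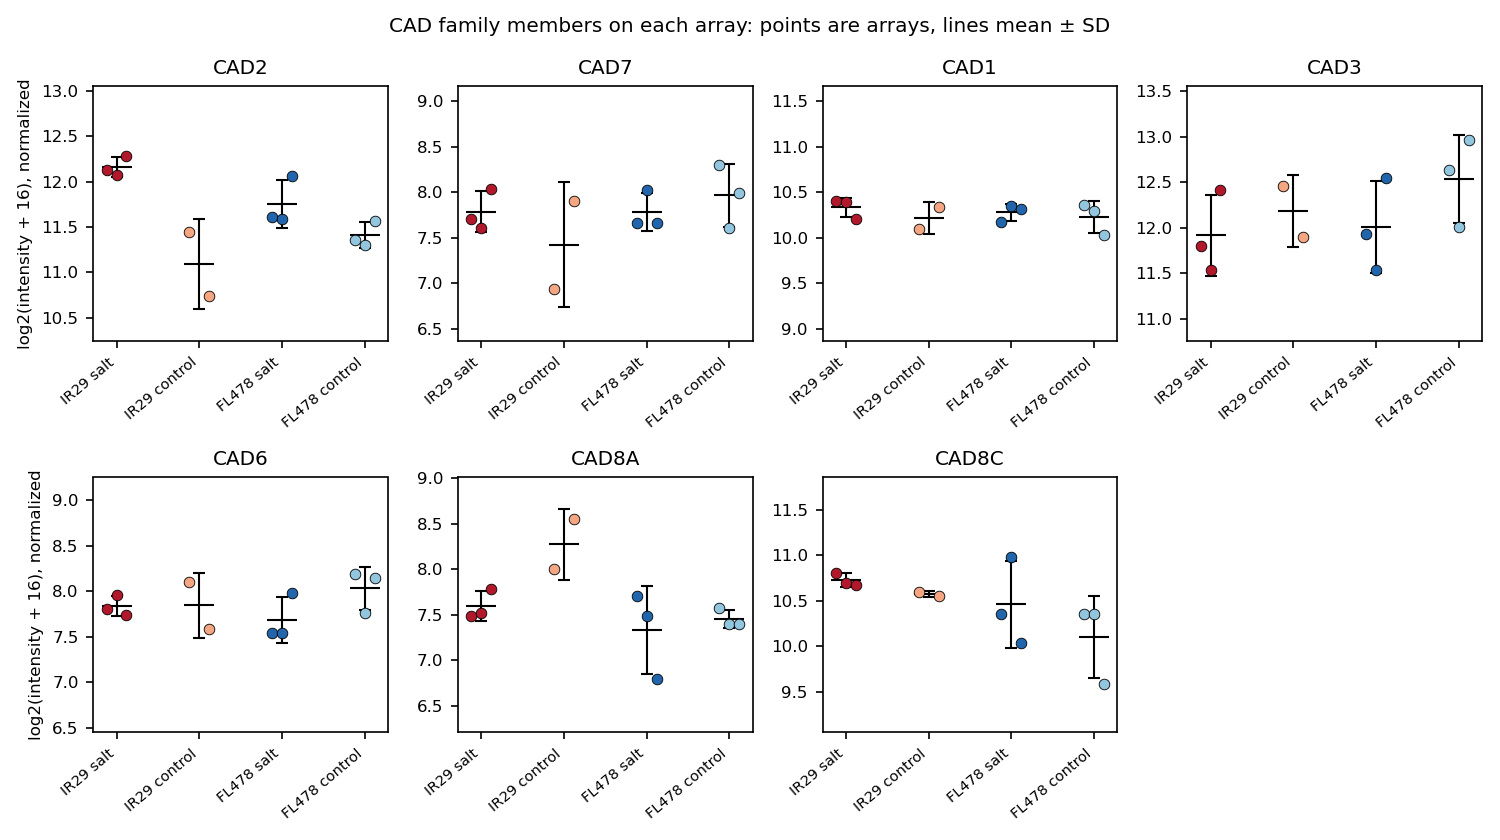
Normalized log2 intensity of the 7 CAD genes on each of the 11 arrays, by group, where points are arrays, horizontal lines are group means and bars are SDs (n = 3, and 2 for IR29 control). CAD2 is at 12.07 to 12.28 in salt-stressed IR29 and at 10.74 and 11.44 in IR29 control, while CAD1 stays between 10.03 and 10.40 on all arrays.

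CAD7 (LOC4336968, FC1), the other member with a known role in culm walls, had overlapping salt and control arrays in both lines. Its intensities were 195, 176 and 249.5 in salt-stressed IR29, against 121 and 212 in IR29 control. A control lay between the salt arrays, so the groups overlapped, and the log2 difference was 0.36 ± 0.32 with an interval from -0.34 to 1.06. In FL478 it had 182, 261 and 195 under salt, against 291, 174 and 245 in control plants, with a log2 difference of -0.19 ± 0.29 and full overlap. The low IR29 control replicate 1 decides the sign in IR29, where the difference was -0.13 without it and 0.84 without the other control. With all arrays the responses of the lines differed by 0.55 ± 0.43 (adjusted p = 0.942 in limma), with an interval from -0.39 to 1.48 that spans no difference and a large one. The lines had nearly equal CAD7 means under salt, 7.79 in IR29 and 7.78 in FL478, with an interval for the difference from -0.62 to 0.63.

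CAD1 (LOC4348242) was the most even member over the arrays. It had 1344, 1340 and 1160 in salt-stressed IR29 and 1040 and 1290 in IR29 control. Its FL478 intensities were 1133, 1304 and 1263 under salt and 1313, 1228 and 1018 in control plants. The 4 group means lay within 0.12 on the log2 scale, less than the range of 0.33 within FL478 control. The intervals of its salt differences ran from -0.19 to 0.43 in IR29 and from -0.23 to 0.33 in FL478, which leaves room for changes of that size.

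CAD3 (LOC4348690) varied more between arrays of a group than between groups. Its intensities were 3537, 2963 and 5528 in salt-stressed IR29, against 5736 and 3868 in IR29 control. In FL478 they were 3885, 2922 and 5753 under salt, against 6467, 4161 and 7850 in control plants. The salt means were below the control means in both lines, but the groups overlapped in each, and without IR29 control replicate 1 the IR29 difference was 0.01. The log2 differences were -0.27 ± 0.34 in IR29 (interval -1.01 to 0.47) and -0.53 ± 0.30 in FL478 (interval -1.19 to 0.13), with adjusted p values of 0.922 and 0.935 in limma. The range within salt-stressed FL478, 1.01 on the log2 scale, exceeded the span of 0.62 between the group means. In each group replicate 2 was the lowest, and replicate 3, which IR29 control lacks, was the highest elsewhere. With a term for the replicate number the difference was -0.51 ± 0.12 in IR29 (unadjusted p = 0.00183, adjusted p = 0.304 in limma). In FL478 it was then -0.53 ± 0.11 (unadjusted p = 0.000474, adjusted p = 0.552 in limma).

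CAD6 (LOC4335223) lay between 163 and 270.1 on all arrays. It had 212, 232 and 201 in salt-stressed IR29, against 257 and 163 in IR29 control, a log2 difference of -0.01 ± 0.25 with an interval from -0.56 to 0.55. In FL478 the intensities were 166, 185 and 244.5 under salt, against 266, 196 and 270.1 in control plants. That difference was -0.35 ± 0.23 with an interval from -0.84 to 0.15, and salt replicate 3 lay among the controls. The responses of the lines differed by 0.34 ± 0.34 (adjusted p = 0.956 in limma).

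CAD8A and CAD8C belong to a cluster on chromosome 9, where CAD8A, CAD8B, CAD8C and CAD8D follow each other in the RefSeq table without another gene between them. Whether a probe set of this cluster also reads RNA of a neighbouring copy was not tested. CAD8A (LOC4346988) was the member with the lowest unadjusted p for the lines in control plants. Its intensities were 162, 164 and 206 in salt-stressed IR29, against 240 and 345 in IR29 control. In FL478 they were 189, 178 and 105.0 under salt, against 161, 150 and 159 in control plants.

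Both IR29 controls were thus above all other arrays for CAD8A. The salt difference in IR29 was -0.68 ± 0.30 (1.60-fold lower, interval -1.34 to -0.02), at an unadjusted p of 0.0449 and an adjusted p of 0.664 in limma. In FL478 it was -0.13 ± 0.27, with 1 salt array well below the rest of its group and a difference of 0.15 without that array. In control plants IR29 was above FL478 by 0.82 ± 0.30 (interval 0.16 to 1.48, unadjusted p = 0.0193, adjusted p = 0.404 in limma). Under salt the lines differed by 0.27 ± 0.27, with overlapping arrays. The IR29 salt difference was -0.40 without IR29 control replicate 2 and -0.96 without IR29 control replicate 1, and it was not called in either fit.

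CAD8C (LOC9269515) had 1781, 1664 and 1608 at its brighter probe set in salt-stressed IR29, against 1492 and 1500.5 in IR29 control. The salt arrays all lay above the controls, yet the log2 difference was only 0.16 ± 0.27, with an interval from -0.43 to 0.74. In FL478 the intensities were 1286, 1987 and 1049 under salt, against 1315, 1296 and 741 in control plants, with overlap and a difference of 0.36 ± 0.24. That difference was 0.10 without FL478 salt replicate 2, the highest array, and also without FL478 control replicate 3, the lowest. In control plants both IR29 arrays were above all FL478 arrays, by 0.47 ± 0.27 (adjusted p = 0.667 in limma). The SD of the log2 values was 0.07 in salt-stressed IR29 and 0.04 in IR29 control, against 0.48 in salt-stressed FL478 and 0.45 in FL478 control. The fit takes a common spread over all groups, so the spread of the FL478 arrays enters the IR29 interval. The second CAD8C probe set was dim, at 1.8 to 57.5 over all arrays, and its salt differences were -0.01 ± 0.60 in IR29 and 0.11 ± 0.54 in FL478, too imprecise to set beside the brighter one.

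**Figure D2:**
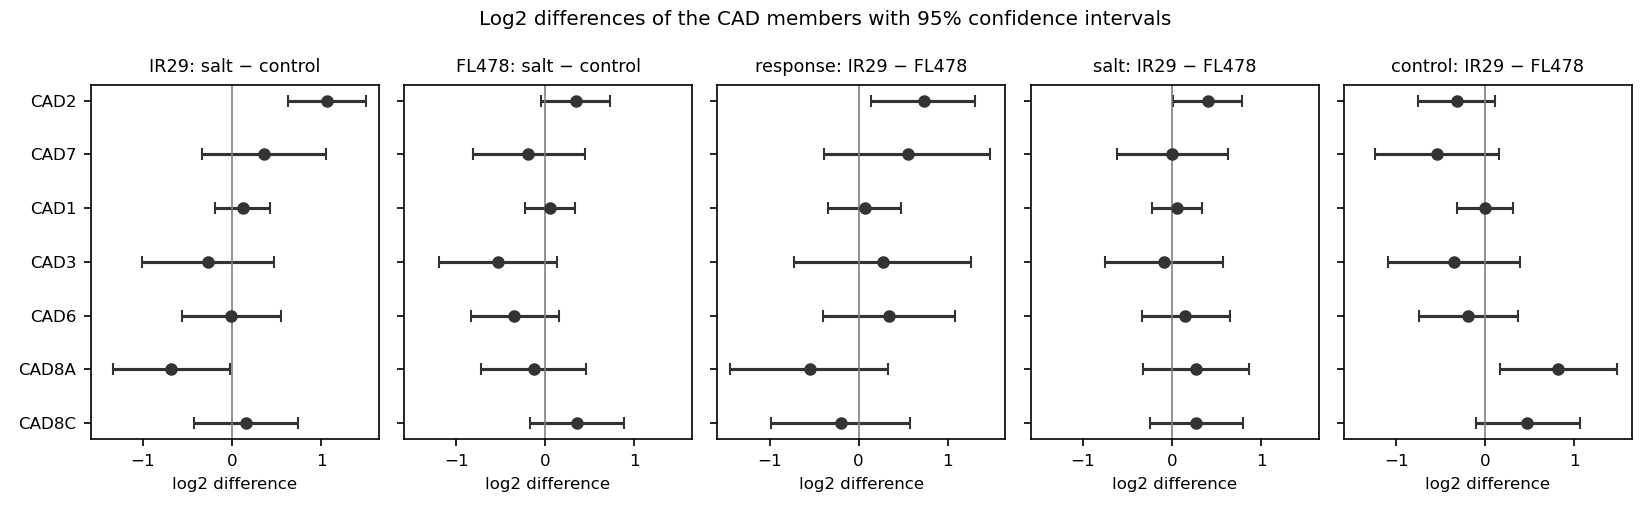
Log2 differences of the 7 CAD genes (points) with 95% confidence intervals (bars) in the 5 comparisons, first group minus second. The intervals that do not hold 0 are those of CAD2 in IR29, in the difference of the responses and between the lines under salt, and of CAD8A in IR29 and between the lines in control plants.

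The 7 genes did not share a direction. In the salt response of IR29, 4 lay above 0 and 3 below, with a median log2 difference of 0.12 against -0.011 over all probe sets. In FL478, 3 lay above 0 and 4 below, with a median of -0.13 against 0.004 over all probe sets. The values ran from -0.68 (CAD8A) to 1.07 (CAD2) in IR29. In FL478 they ran from -0.53 (CAD3) to 0.36 (CAD8C), with CAD2 at 0.34.

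Of the 7 members, limma called 0 in IR29 at an adjusted p under 0.05, where 0.00524% of all probe sets were called. At an unadjusted p under 0.05, CAD2 was higher and CAD8A lower, 2 of 7, against 7.37% of all probe sets. All salt arrays of IR29 were above all controls for CAD2 and CAD8C, 2 of 7 where 10.8% of all probe sets did so, and below them for CAD8A, 1 of 7 where 12.7% did so. In FL478 the count called was 0 of 7 (0.00873% of all probe sets), with 0 at an unadjusted p under 0.05 (5.41%) CAD2 as the 1 gene with every salt array above every control (5.49%), and 0 genes with every salt array below (4.83%).

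For the difference between the responses limma called 0 of 7 members and 0% of all probe sets, and CAD2 was the 1 member at an unadjusted p under 0.05 (5.34%). The comparison of IR29 with FL478 under salt gave 0 of 7 called (1.73%), and again CAD2 at an unadjusted p under 0.05 (11.4%). CAD2 was also the 1 member with all IR29 arrays higher (8.65%), and 0 had all of them lower (9.46%). In control plants limma called 0 of 7 (0.814%), with CAD8A at an unadjusted p under 0.05 (8.97%), CAD8A and CAD8C had all IR29 arrays higher (11.5%), and 0 had all of them lower (11.1%). With so few members these counts are a description, and comparisons that share arrays are not independent of each other.

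The rest of the monolignol and lignin pathway gave 20 measured genes: PAL, 4CL, HCT, CCR and laccase genes. In IR29 15 lay above 0 under salt and 5 below, with a median log2 difference of 0.48 against -0.011 over all probe sets. Those below 0 include LAC15, LAC19 and LAC24, which were dim. Their group mean intensities ran from 1.8 (LAC24, FL478 control) to 37.5 (LAC15, IR29 control). CCR1, above 0, was dim as well, at 13.9 to 29.4, so the directions of these genes carry little weight. Limma called none of them over all probe sets, and at an unadjusted p under 0.05, 6 of 20 were higher and 0 lower, where 7.37% of all probe sets were past that level in either direction. In FL478 9 lay above 0 and 11 below, with a median of -0.02, 0 called, and 0 higher and 1 lower at an unadjusted p under 0.05 (5.41% of all probe sets). That gene was the laccase gene LAC23, with -0.78 ± 0.26 (adjusted p = 0.905 in limma). PAL06, of the entry step, had the lowest p of the list in IR29, with a log2 difference of 1.44 ± 0.37 (adjusted p = 0.317 in limma) from intensities of 129, 122 and 198 under salt against 53.3 and 40.1 in control plants. A second, dimmer PAL06 probe set had 0.87 ± 0.40. PAL06 and LAC4 also led the list for the difference between the responses, with 1.99 ± 0.50 and 1.38 ± 0.53 and adjusted p values of 0.746 and 0.916 in limma. The dimmer PAL06 probe set had 1.22 ± 0.54 for that difference.

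Between the lines under salt, 1 of 20 pathway genes passed the test, where 1.73% of all probe sets did. At an unadjusted p under 0.05, 8 were higher in IR29 and 1 lower, against 11.4% of all probe sets in either direction. The laccase gene LAC20 (LOC4351006) had 779, 477 and 906 in salt-stressed IR29, against 94.7, 140 and 58.7 in salt-stressed FL478. Its level was higher in IR29 by 2.79 ± 0.58 on the log2 scale (6.92-fold, adjusted p = 0.0325 in limma). The call ended in 7 of 20 alternatives, among them each fit without an IR29 salt array, with adjusted p values up to 0.164. In control plants no pathway gene was called, with 2 higher in IR29 and 3 lower at an unadjusted p under 0.05 (8.97% of all probe sets). The higher genes in control plants were LAC20 and LAC19, and LAC19 was dim, with group mean intensities of 2.4 to 11.4. Every IR29 array was above every FL478 array there for LAC20, at 234 and 110 in IR29 control against 89.3, 73.6 and 4.2 in FL478 control, a log2 difference of 1.65 ± 0.65 (unadjusted p = 0.0267, adjusted p = 0.450 in limma). PAL06 was lower in IR29 at every array, with a log2 difference of -1.30 ± 0.37 (adjusted p = 0.200 in limma), against -0.13 ± 0.40 at its dimmer probe set.

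**Figure D3:**
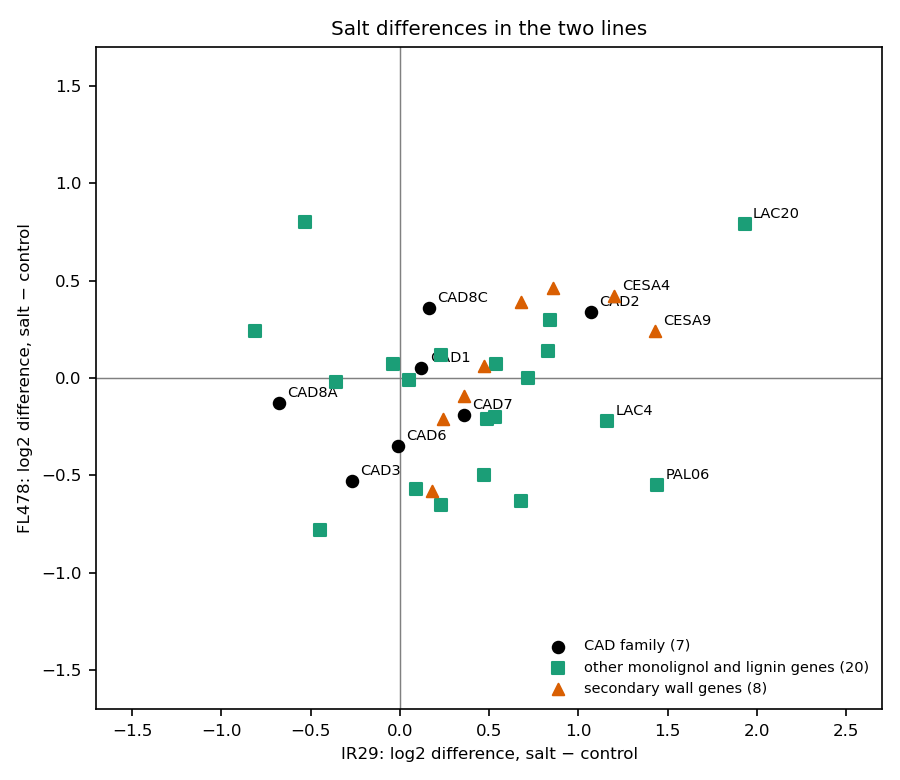
Log2 difference of salt-stressed against control plants in IR29 (horizontal) and in FL478 (vertical) for the 7 CAD genes, 20 other monolignol and lignin genes and 8 secondary wall genes, each a point. CAD2 lies at 1.07 and 0.34, near CESA4 at 1.20 and 0.42, and the other CAD genes lie between -0.68 and 0.36 in IR29.

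Lignin is laid down in the secondary wall, whose cellulose and xylan are made by enzymes of the CESA and IRX families. All 8 measured genes of that list lay above 0 under salt in IR29, with a median log2 difference of 0.57, and 5 of 8 lay above 0 in FL478, with a median of 0.15. Limma called 0 of them over all probe sets in IR29, with 4 higher at an unadjusted p under 0.05 (7.37% of all probe sets), and 0 in FL478, with 2 higher and 1 lower (5.41%). The cellulose synthase genes CESA4 and CESA9 led in IR29, with 1.20 ± 0.18 and 1.43 ± 0.24 (adjusted p = 0.0900 and 0.116 in limma), followed by CESA7 with 0.86 ± 0.22 (adjusted p = 0.305). In FL478 CESA4 had 0.42 ± 0.16 and CESA7 0.46 ± 0.19. One of the 8, bHLH081, is on the list only because the RefSeq table also gives it the name BC1. It had 0.18 ± 0.29 in IR29 and -0.58 ± 0.26 in FL478. Between the lines in control plants 7 of the 8 genes were lower in IR29 and 1 higher, with a median log2 difference of -0.37. All IR29 arrays lay below all FL478 arrays for 6 of them (11.1% of all probe sets). The unadjusted p in limma was below 0.05 for 4, all lower (8.97%). Both of these counts include bHLH081, at -0.73 ± 0.29. The xylan genes IRX9 and IRX14 were at -0.82 ± 0.21 and -0.47 ± 0.15 there, and CESA9 at -0.78 ± 0.24 (adjusted p = 0.132, 0.304 and 0.259 in limma). Under salt 6 of the 8 were higher in IR29 and 2 lower, with a median of 0.23. Limma called 0 of the 8 in either comparison. For the difference of the responses CESA9 had 1.18 ± 0.32 and CESA4 0.78 ± 0.24 (adjusted p = 0.826 and 0.860 in limma).

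The xylem markers were CESA4, CESA7, CESA9, IRX9, BC1 and bHLH081, all of which are also on the secondary wall list. Their sum therefore restates values of that list and is not a separate measure of tissue makeup. CESA4 and CESA7 made up 46.3% to 75.1% of the summed intensity on each array. The sum over the 6 genes was 8496 to 11225 in salt-stressed IR29, against 5170 to 5520 in IR29 control. In FL478 it was 7224 to 8777 under salt, against 6430 to 6842 in control plants, and no marker was at 0 on any array. FL478 salt replicate 2, at 8777, was above IR29 salt replicate 2, at 8496. IRX9 was also higher under salt in IR29, with log2 means of 10.52 in salt-stressed and 10.16 in control plants. Unlike the sum, its means were higher in FL478 under salt (10.89), and FL478 control was at 10.98. bHLH081 was at 8.25 in salt-stressed IR29 and 8.07 in IR29 control, and at 8.22 in salt-stressed FL478 and 8.80 in FL478 control. Markers of dividing cells ran the other way, at 18883 to 24674 in salt-stressed IR29 against 25677 to 30409 in IR29 control, over 6 genes. In FL478 their sum was 21130 to 25224 under salt and 25372 to 30401 in control plants. Root markers, 3 genes, summed to 2059 to 3154 in salt-stressed IR29 and 2242 to 3689 in IR29 control. For FL478 the root sum was 2124 to 4355 under salt and 4233 to 4703 in control plants. RNA quality was followed by control probe sets at both ends of a transcript, as the log2 ratio of the 3' end over the 5' end. It was 0.99 to 1.15 for cyclophilin in salt-stressed IR29, against 0.70 to 0.90 in IR29 control. For actin it was 0.66 to 0.79 in salt-stressed IR29, against 0.48 to 0.50 in IR29 control. For GAPDH the IR29 groups overlapped, at 0.33 to 0.56 under salt and 0.28 to 0.56 in control plants. In FL478 the groups overlapped for cyclophilin, at 0.69 to 1.22 under salt and 0.41 to 0.87 in control plants, and for actin, at 0.70 to 1.03 under salt and 0.60 to 0.90 in control plants. The part of the tissue makeup and of RNA quality in the CAD2 difference was not tested.

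Genes with the most similar pattern over the 11 arrays were found by the mean absolute difference between log2 values, each gene centred on its own mean. For CAD2 the nearest of 1979 named genes were 4CL-3 (0.172), ABIL1 (0.177) and CESA4 (0.178), where the median gene was at 0.40. 4CL-3, a coumarate ligase gene, had 1199, 714 and 1144 in salt-stressed IR29 and 608 and 471 in IR29 control, with a log2 difference of 0.83. In FL478 it had 669, 625 and 837 under salt and 676, 514 and 705 in control plants, with a difference of 0.14. ABIL1 had 0.63 in IR29 and 0.22 in FL478.

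**Figure D4:**
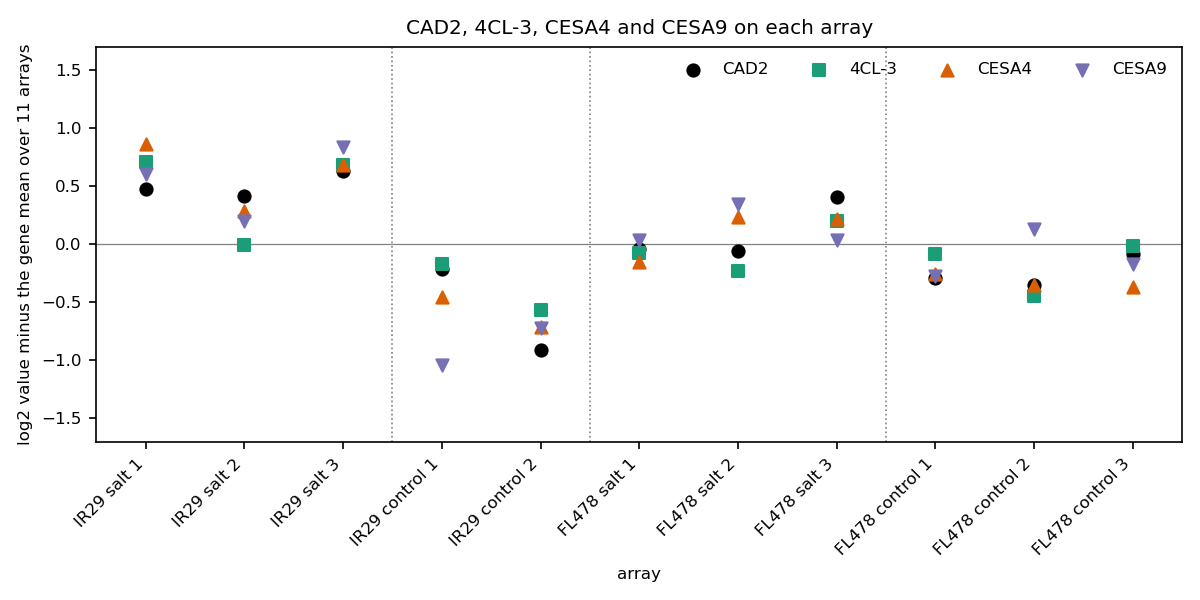
Normalized log2 values of CAD2, 4CL-3, CESA4 and CESA9 on each of the 11 arrays, each gene minus its own mean. All 3 salt-stressed IR29 arrays are above 0 for CAD2, CESA4 and CESA9, and both IR29 controls are below 0 for all 4 genes.

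No other CAD gene was among the 3 nearest genes of any member. CAD3 was nearest to UGE-2 (0.137), a UDP-glucose epimerase gene, SSI2 (0.143) and PP2C10 (0.180), and CAD7 to BSL1 (0.141), S1FA (0.166) and CSLC7 (0.167). CAD8A was nearest to ORC3 (0.151), KIN10B (0.177) and PAD1 (0.183). ORC3, of the origin recognition complex, had salt differences of -0.51 in IR29 and -0.13 in FL478, beside -0.68 and -0.13 for CAD8A. CAD8C was nearest to PDIL1-2 (0.157), CCDA2 (0.162) and CIPK7 (0.166). CAD1 and CAD6, whose group means span less than 0.50 on the log2 scale, were not compared in this way.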

How the data were processed

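The authors deposited linear intensity values, 1 for each probe set on each array, and GCOS 1.2 is named in the submitters' processing notes. How signals were summarised is not given in the sources used here. Each array had the same trimmed mean, 500.1, so the deposited intensities had been scaled per array. They come without detection calls.

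The 123 control probe sets were dropped and the other 57258 kept, dim ones included. After a pseudocount of 16 and a log2 transformation the array medians differed by up to 0.47, and quantile normalization followed. The model, fitted in limma 3.58.1 (R 4.3.3), had 4 group means over 11 arrays, 7 residual degrees of freedom and a prior variance that follows the mean. P-values are two-sided, with Benjamini-Hochberg adjustment over all probe sets and calls under 0.05. The fit was tested on simulated data.

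Of the probe sets, 22436 name 1 gene, and the brightest stands for a gene. Members, lists and tests were chosen with earlier results of these data known. Lists follow symbol rules. The text names every list gene called in a comparison, or up to 4 with the lowest p where none was called, and the 3 nearest genes of members whose group means span at least 0.50. Alternatives were the deposited scaling, pseudocounts of 1 and 64, a minimum mean intensity of 100, array weights, a constant variance prior, fits on 2 groups, averaging the probe sets of a gene, a replicate block and leaving out each array. Tables and plots used Python 3.11.15, pandas 2.3.3 and matplotlib 3.10.9.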

Additional observations from a re-analysis of the deposited data

How the results depend on the processing

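In all 5 comparisons 0 of the 7 CAD members were called by limma under every alternative run, so these counts did not change. Of 693 single values of members under the alternatives, 667 kept their direction and 26 turned, all between values that were not called. With the values as deposited, CAD6 in IR29 was 0.06 and CAD7 between the lines under salt -0.04. The other turns came from leaving out 1 array. Salt against control ran in these fits from -0.05 to 0.12 (CAD1) and from -0.32 to 0.15 (CAD8A) in FL478, and in IR29 from -0.13 to 0.84 (CAD7), -0.01 to 0.24 (CAD1), -0.55 to 0.01 (CAD3) and -0.26 to 0.25 (CAD6). The difference of the responses ran from -0.06 to 0.19 (CAD1), -0.01 to 0.54 (CAD3) and -0.41 to 0.06 (CAD8C). Between the lines it ran in control plants from -0.67 to 0.03 (CAD2), -0.13 to 0.12 (CAD1) and -0.45 to 0.07 (CAD6), and under salt from -0.12 to 0.13 (CAD7), -0.33 to 0.18 (CAD3) and -0.01 to 0.46 (CAD8A). Over all probe sets the number called ran from 0 to 65 in IR29 (3 with all arrays, 65 without IR29 control replicate 2), from 0 to 8 in FL478 (5), from 0 to 21 for the difference of the responses (0), from 543 to 1660 between the lines under salt (992) and from 150 to 541 in control plants (466), with no CAD member among them.

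Over all probe sets the deviations of arrays with the same number correlated at -0.051 to 0.132 over 15 pairs, 2 of them above 0.1. Those of arrays with different numbers, in different groups, correlated at -0.153 to 0.153. The labels do not say what a number shares. With the replicate block 0 members were called in any comparison. CAD2 in IR29 was 0.97 ± 0.16 and CAD3 was -0.51 ± 0.12 in IR29 and -0.53 ± 0.11 in FL478 (adjusted p = 0.304 and 0.552 in limma).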

Other observations

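For CAD2 and CAD3 the array numbered 2 was the lowest of its group in all 4 groups, and the array numbered 3 was the highest in the 3 groups that have one. The CAD3 log2 values were 11.54 and 12.41 for replicates 2 and 3 of salt-stressed IR29, 11.54 and 12.55 in salt-stressed FL478, and 12.01 and 12.96 in FL478 control, while IR29 control replicate 2 was at 11.90. For CAD2 they were 12.07 and 12.28 in salt-stressed IR29, 11.59 and 12.06 in salt-stressed FL478, and 11.30 and 11.57 in FL478 control, with IR29 control replicate 2 at 10.74. The same order held for 4CL2 of the lignin list, and for 4CL-3 and HCT2 replicate 2 was the lowest in all 4 groups. These 3 were picked from the 20 genes of that list, and the others were not counted. For LAC10 and LAC4 replicate 2 was instead the highest in IR29 control (8.65 and 8.14). It was also the highest for both in salt-stressed FL478 (9.48 and 8.67) and FL478 control (8.92 and 8.21). Over all 57258 probe sets, 2.79% had replicate 2 lowest in every group and 0.906% also had replicate 3 highest. The labels do not say what the replicate numbers share, and the pattern was noticed after the values were seen.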
